A study of Mus musculus with 18 samples.

Results

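The fibroblast growth factor (FGF) genes, their receptor genes and the feedback genes of the ERK kinase cascade were followed through thalidomide exposure of mouse embryoid bodies. The set was chosen by gene symbol: all numbered Fgf, Fgfr, Spry and Spred genes, with Fgfrl1, Dusp4, Dusp5, Dusp6, Etv4, Etv5, Ier3 and Egr1 added. It held 41 of the 22180 genes measured, namely 18 secreted ligands, 4 intracellular FGF homologous factors, 5 receptors and 14 feedback genes. The study set differentiating stem cells exposed to thalidomide, a human teratogen that binds the ubiquitin ligase receptor cereblon, against controls of the same hours.

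Stem cells that aggregate in suspension form embryoid bodies and begin to differentiate. Those measured here came from wild-type C57BL/6 mouse embryonic stem cells that had been kept in a medium with LIF, BMP-4 and a GSK3b inhibitor. Exposed embryoid bodies received 0.25 mM thalidomide from day 3 for 24, 48 or 72 h, and the treatment protocol gives the control as 0.25% DMSO over the same hours. The series text calls the controls unexposed, and their source names count hours after embryoid body formation, so the labels do not settle whether the controls received the vehicle or were collected at the same stage. Each of the 6 groups had 3 arrays, which the labels call biological replicates. A re-analysis tag stands in the titles of all 6 arrays at 24 h. At 48 h and 72 h it stands on the controls and not on the exposed arrays, so there treatment and tag cannot be told apart. The thalidomide course between 24 h and 72 h and every difference of effect that involves 24 h also cross the tag.

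The labelled cell type was checked against marker genes. Nanog, a core pluripotency factor, had mean log2 signals of 8.62 at 24 h, 6.52 at 48 h and 5.30 at 72 h in thalidomide arrays, and of 9.13, 6.28 and 4.82 at the same times in control arrays. It had the largest drop of the 6 pluripotency markers, whose median change between 24 h and 72 h was -0.35 in thalidomide and -0.47 in control arrays. Of the 6, 5 had a value below 0, and Sox2 rose by 1.34 and 1.03. The mean of 4 primitive streak markers ran from 7.95 to 8.08 in thalidomide arrays and from 8.34 to 8.42 in control arrays at 24 h, whereas that of 4 cardiac markers ran from 7.46 to 8.68 in thalidomide arrays and from 9.16 to 9.23 in control arrays at 72 h. The later samples are therefore differentiating mixtures and not stem cells alone. In such bulk RNA, fewer cells of a type and less RNA per cell cannot be told apart. Arrays of 1 group correlated across genes at r = 0.992 to 0.996.

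Secreted FGFs bind receptor tyrosine kinases together with heparan sulfate, and the activated receptors signal through RAS to the kinase ERK. ERK induces its own brakes: Sprouty and Spred proteins act on the RAS and RAF steps, and Dusp phosphatases remove the activating phosphates of ERK. Etv4, Etv5, Egr1 and Ier3 are transcribed within the same response and are counted here among the feedback genes as ERK-induced genes, not as brakes. In the early mouse embryo Fgf4 and ERK drive the exit from naive pluripotency, Fgf5 marks the epiblast after implantation, and Fgf8 acts in the primitive streak, where mesoderm forms. The homologous factors Fgf11 to Fgf14 stay inside the cell and are known as partners of sodium channels.

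Promoter sequence is shown for 4 members that the results below turn on: Ier3, called lower at both 24 h and 48 h; Spry2, a second feedback gene called lower; Dusp6, an ERK phosphatase used as a readout of FGF signalling; and Fgf5, the ligand with the largest change over time. Each line gives the 250 bases before the annotated start on the gene's own strand, 5′ to 3′, from RefSeq on GRCm38.p6. Capitals mark 3 kinds of motif, found on either strand: TATAA of the promoter element that sets the start of transcription, CCAAT of the box named after it, and CGGAA at the core of sites for ETS factors. These 3 motifs were chosen after the sequences were seen.
Ier3, chr17:35821463-35821712, plus strand: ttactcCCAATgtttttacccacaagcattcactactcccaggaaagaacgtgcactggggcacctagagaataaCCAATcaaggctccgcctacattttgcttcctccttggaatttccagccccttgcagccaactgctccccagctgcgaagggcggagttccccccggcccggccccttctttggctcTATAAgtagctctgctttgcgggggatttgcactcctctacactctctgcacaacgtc
Spry2, chr14:105896820-105897069, minus strand: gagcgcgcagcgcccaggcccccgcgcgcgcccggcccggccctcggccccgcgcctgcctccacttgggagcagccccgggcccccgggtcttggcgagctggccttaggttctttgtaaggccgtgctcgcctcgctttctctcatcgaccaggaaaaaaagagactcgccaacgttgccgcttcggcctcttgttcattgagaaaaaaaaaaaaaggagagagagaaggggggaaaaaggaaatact
Dusp6, chr10:99262981-99263230, plus strand: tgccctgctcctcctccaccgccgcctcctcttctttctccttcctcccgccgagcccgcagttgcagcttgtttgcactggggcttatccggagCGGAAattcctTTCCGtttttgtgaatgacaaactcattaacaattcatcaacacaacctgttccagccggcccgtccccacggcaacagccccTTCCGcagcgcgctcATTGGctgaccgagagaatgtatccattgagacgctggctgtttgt
Fgf5, chr5:98253934-98254183, plus strand: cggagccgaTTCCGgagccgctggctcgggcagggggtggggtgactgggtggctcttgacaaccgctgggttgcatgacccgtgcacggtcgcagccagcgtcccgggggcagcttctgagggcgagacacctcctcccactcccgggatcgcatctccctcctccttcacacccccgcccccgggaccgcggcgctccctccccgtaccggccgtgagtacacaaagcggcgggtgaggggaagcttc

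Ier3 has TATAA beginning 58 bases before the start, with CCAAT beginning 244 and 175 bases before it. Dusp6 has 3 ETS cores, beginning 155, 144 and 61 bases before the start, and an inverted CCAAT box beginning at 46. Fgf5 has a single ETS core, beginning at 241, and the Spry2 window holds none of the motifs searched. Over all 32851 RefSeq windows of this length, 22.8% hold TATAA, 33.8% CCAAT and 25.2% CGGAA. Of the 37 windows of 29 members, 13.5% hold TATAA, 35.1% CCAAT and 29.7% CGGAA. The search also took the AP-1 site TGANTCA (5.41% of members' windows and 6.75% of all), the cyclic AMP response site TGACGTCA (0% and 1.55%), the TCF site CTTTGAT (2.7% and 3.21%) and the CArG box (2.7% and 1.47%). No searched motif overlaps another in the windows shown. A match describes letters and is not a measured binding site.

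The first question was which members differed after 24 h of thalidomide, the comparison in which all arrays share the re-analysis tag. Of the 41 members 2 fell and 0 rose at an adjusted p under 0.05 (limma, Benjamini-Hochberg over 22180 genes), against 5.43% of all genes lower and 1.42% higher (6.86% either way). The share of members called lower, 4.88%, was close to that background. The 2 genes were Ier3, an early gene of the ERK response that guards cells against death signals, and Fgf8. The median log2 change was 0.01 over the members and -0.006 over all genes.

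Ier3 had log2 signals of 6.11, 6.06 and 6.12 in thalidomide arrays at 24 h, against 6.57, 6.47 and 6.67 in control arrays. All 3 thalidomide arrays lay below all 3 controls and close to each other. The change was -0.47 ± 0.10 (log2, SE; adjusted p = 0.0107, limma), or 1.39-fold lower with thalidomide. The call was lost without control array 3 of 24 h (adjusted p = 0.0594, limma) and in a fit of only the groups compared (adjusted p = 0.053, limma), and the adjusted p over 13 alternatives ran from 0.00268 to 0.0594.

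Fgf8 had log2 signals of 7.43, 7.49 and 7.77 in thalidomide arrays at 24 h, against 8.10, 7.72 and 8.35 in control arrays. The groups overlapped, since control array 2 lay below the highest thalidomide array. The change was -0.49 ± 0.14 (log2, SE; adjusted p = 0.0456, limma), or 1.41-fold lower. The call held in 6 of 13 alternatives, with changes between -0.66 and -0.35, with adjusted p up to 0.216, and was lost when control array 1 or 3 or thalidomide array 1 or 2 was left out. Primitive streak markers moved with Fgf8: all 4 measured of the 5 listed were lower in every thalidomide array than in every control array at 24 h, with changes between -0.50 (Mixl1) and -0.25 (Eomes), although 0 of the 4 passed the threshold. Their part in the Fgf8 result was not tested.

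The other feedback genes ran from -0.41 (Spry4) to 0.04 (Spred2) at 24 h, and 0 of them passed. Over all 14, including Ier3, 12 had a value below 0, the median was -0.13 and 1 passed; after cyclic loess scaling 10 lay below 0 with a median of -0.05. Arrays did not overlap for 7 members that were lower with thalidomide (17.1% of the 41) and 2 that were higher (4.88%), against 15.9% and 9.23% of all genes. Of those 7 lower members 6 were feedback genes: Ier3, Spry2, Spry3, Spry4, Dusp6 and Etv5. A second, dimmer probe set of Etv5 had -0.02 at 24 h with overlapping arrays, against -0.30 for the one used. Spry4, a Sprouty inhibitor of receptor signalling, had 8.10, 7.90 and 7.82 in thalidomide arrays, against 8.39, 8.32 and 8.32 in control arrays, a change of -0.41 ± 0.12 (log2, SE; adjusted p = 0.0554, limma) that passed in 3 of 13 alternatives. Etv4, an ETS transcription factor induced by FGF signalling, had a change of -0.16 ± 0.09 (log2, SE) with overlapping arrays. The ERK phosphatases ran from -0.14 (Dusp4) to -0.01 (Dusp5).

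Dusp6 was represented by the brighter of 2 probe sets, with a change of -0.13 ± 0.09 (log2, SE; adjusted p = 0.428, limma). Its dimmer probe set averaged 4.24 ± 0.11 in thalidomide arrays and 4.64 ± 0.07 in control arrays at 24 h (SD, n = 3 each). Both probe sets were lower in every thalidomide array at 24 h, and Dusp6 passed when the probe sets of a gene were averaged (adjusted p = 0.0403, limma). The larger change, -0.40, was that of the dimmer probe set, whose signal lay near the lower quartile of all genes, 4.54. At 48 h the 2 probe sets differed, with 0.02 and overlapping arrays for the brighter and -0.28 without overlap for the dimmer.

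Among the receptors 0 of 5 passed at 24 h, with values from -0.26 (Fgfrl1) to 0.24 (Fgfr2). Fgfrl1, a receptor without a kinase domain, had 6.50, 6.37 and 6.47 in thalidomide arrays, against 6.67, 6.68 and 6.77 in control arrays. These arrays did not overlap, and the change of -0.26 ± 0.10 (log2, SE) had an adjusted p of 0.125 (limma). Apart from Fgf8, the 17 other secreted ligands ran from -0.19 (Fgf3) to 0.21 (Fgf22), and the 4 homologous factors from -0.12 (Fgf13) to 0.19 (Fgf12). The half-width of the 95% interval, not adjusted for the number of genes, was 0.22 at the median over members. The spread behind it was estimated over all 18 arrays. Changes below 0.22 were mostly beyond what the fit could resolve, and some larger ones, such as that of Fgfrl1, also did not pass.

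**Figure D1:**
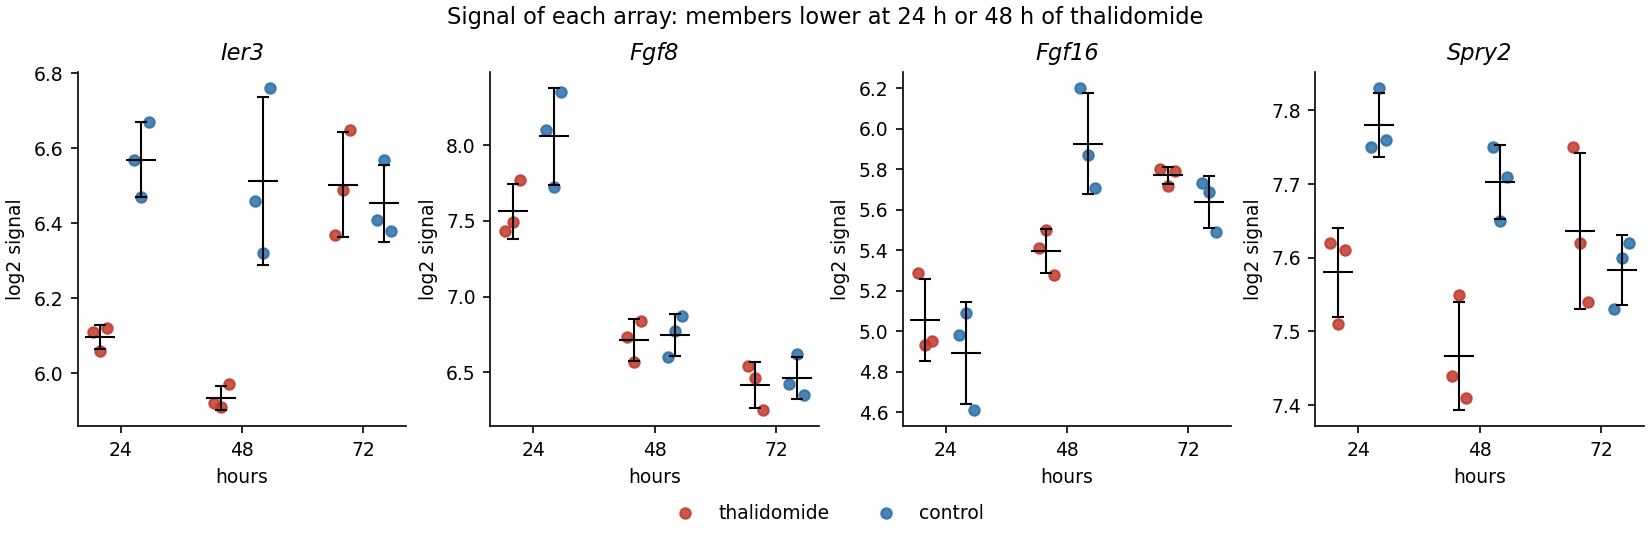
Log2 signal of each array (vertical axis) at 24, 48 and 72 h for the 4 members called lower in an exposure comparison, with thalidomide arrays in red left of control arrays in blue. Black bars show the mean ± SD of 3 arrays. Ier3 is low in all 6 thalidomide arrays of 24 h and 48 h, at 5.91 to 6.12, and overlaps the controls at 72 h.

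After 48 h, 3 members fell and 0 rose, against 4.23% of all genes lower and 1.85% higher (6.08% either way). They were Ier3, the ligand gene Fgf16 and Spry2, or 7.32% of the members. After cyclic loess scaling 2 fell and 1 rose: Spry2 was lost and the receptor gene Fgfr1 passed as higher (adjusted p = 0.0391, limma). Fgf8, lower at 24 h, had 6.73, 6.57 and 6.84 in thalidomide arrays at 48 h, against 6.60, 6.77 and 6.87 in control arrays, and its change was -0.03 ± 0.14 (log2, SE). Ier3 was the member called at both times. Arrays did not overlap for 8 members lower with thalidomide (19.5% of the 41) and 4 higher (9.76%), against 16.9% and 12.3% of all genes.

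Ier3 had log2 signals of 5.92, 5.91 and 5.97 in thalidomide arrays at 48 h, against 6.46, 6.32 and 6.76 in control arrays. Again the groups stood apart, and the thalidomide arrays spread less than the controls. The change was -0.58 ± 0.10 (log2, SE; adjusted p = 0.00456, limma), or 1.49-fold lower, and it passed in 12 of 13 alternatives. The 6 thalidomide arrays of 24 h and 48 h, at 5.91 to 6.12, lay below all 9 control arrays of the 3 times, at 6.32 to 6.76. Of the members only Ier3 had that pattern, 1 of 41, against 2.61% of all genes.

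Fgf16, a ligand of the FGF9 subfamily known from the embryonic mouse heart, had 5.41, 5.50 and 5.28 in thalidomide arrays at 48 h, against 6.20, 5.87 and 5.71 in control arrays. The change was -0.53 ± 0.14 (log2, SE; adjusted p = 0.0308, limma), or 1.44-fold lower, with no overlap. Fgf16 had risen by 1.03 ± 0.14 between 24 h and 48 h in control (log2, SE; adjusted p = 6.39e-05, limma), and at 72 h the groups overlapped, with 5.80, 5.72 and 5.79 in thalidomide arrays and 5.73, 5.69 and 5.49 in control arrays. The call held in 6 of 12 alternatives and in 1 of 6 that left out an array, with adjusted p up to 0.132; leaving out any array but control array 3 lost it. Of 4 cardiac markers 1, Myl7, was called lower at 48 h, at -1.09 ± 0.31 (log2, SE; adjusted p = 0.0482, limma). Tnnt2 and Actc1 overlapped between the groups, and Nkx2-5 lay higher in every thalidomide array than in every control array, at 0.26 ± 0.10 (log2, SE; adjusted p = 0.148, limma). The mean of the 4 ran from 6.38 to 6.74 in thalidomide arrays and from 6.67 to 7.20 in control arrays, which overlap. Their part in the Fgf16 result was not tested.

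Spry2, a Sprouty inhibitor of receptor signalling, had 7.44, 7.55 and 7.41 in thalidomide arrays at 48 h, against 7.75, 7.65 and 7.71 in control arrays. The groups did not overlap, but the change was small, at -0.24 ± 0.07 (log2, SE; adjusted p = 0.0479, limma), or 1.18-fold lower. At 24 h the arrays also stood apart, with 7.62, 7.51 and 7.61 in thalidomide arrays, against 7.75, 7.83 and 7.76 in control arrays, and a change of -0.20 ± 0.07 (log2, SE; adjusted p = 0.0855, limma). At 72 h they overlapped, with 7.75, 7.62 and 7.54 in thalidomide arrays and 7.53, 7.60 and 7.62 in control arrays. The call of 48 h held in 4 of 13 alternatives and in 0 of 6 that left out an array, with adjusted p up to 0.207, so leaving out any 1 of the 6 arrays loses it.

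Cell type markers at 48 h were read alongside these feedback genes. The epiblast, definitive endoderm, mesenchyme and cardiac lists each had 1 called gene. The pluripotency, primitive streak, visceral endoderm, endothelium and blood, and neural ectoderm lists had 0. Of all genes 4.23% were called lower and 1.85% higher. Of 4 epiblast markers 1, Otx2, was called lower (-0.50 ± 0.12, log2, SE; adjusted p = 0.0258, limma), while Sall2 had -0.32, Pou3f1 -0.11 and Dnmt3b 0.02, and their mean ran from 7.59 to 7.62 in thalidomide arrays and from 7.77 to 7.88 in control arrays. Of 4 definitive endoderm markers 1, Cxcr4, was called lower (-0.42 ± 0.07, log2, SE; adjusted p = 0.00451, limma). The median of the 4 was -0.1 and the highest value 0.02 (Gsc). Their mean ran from 7.83 to 7.84 in thalidomide arrays and from 7.90 to 8.05 in control arrays. Of 3 mesenchyme markers 1 was called higher, with values from -0.06 (Twist1) to 0.44 (Col1a1). Their mean ran from 6.67 to 6.74 in thalidomide arrays and from 6.46 to 6.63 in control arrays. The part of these markers in the Ier3 and Spry2 results was not tested. Of the 14 feedback genes 2 passed at 48 h, 11 had a value below 0, and the median was -0.16, against 0.005 over all genes; after cyclic loess 10 lay below 0 with a median of -0.10.

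Egr1, an immediate early transcription factor, had a change of -0.35 ± 0.12 at 48 h (log2, SE; adjusted p = 0.0834, limma). The homologous factor Fgf14 had -0.40 ± 0.13 (adjusted p = 0.086, limma). The ligands Fgf6 and Fgf18 lay on the other side, at 0.41 ± 0.13 (adjusted p = 0.0718, limma) and 0.30 ± 0.11 (adjusted p = 0.112, limma). Fgf18 is known for its part in skeletal growth. Fgf6 is a muscle ligand whose signal was dim, with a mean of 4.89 in thalidomide and 4.48 in control arrays at 48 h. None of the 4 passed, although Egr1 and Fgf14 did when dimmer genes were left out of the fit and Fgf6 did without control array 3. The 5 receptors ran from -0.04 (Fgfrl1) to 0.18 (Fgfr3), and 0 passed.

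After 72 h 0 of 41 members passed, 4 at an unadjusted p under 0.05. The background was 0.00902%, or 2 of 22180 genes, both lower: the ryanodine receptor gene Ryr2 (-0.84) and the calcium channel gene Cacna1c (-0.79), which were chosen for naming after their values were seen. At an unadjusted p under 0.05 there were 2023 genes. Ier3 had 6.37, 6.49 and 6.65 in thalidomide arrays at 72 h, against 6.41, 6.57 and 6.38 in control arrays, so the groups overlapped and the change was 0.05 ± 0.10 (log2, SE). Its 95% interval ran from -0.16 to 0.26, above the estimates of both earlier times, which have errors of their own. The direct tests of a change of effect, given below, did not pass for Ier3. Egr1 had a change of -0.28 ± 0.12 (log2, SE; adjusted p = 0.471, limma) without overlap between the groups. Arrays did not overlap for 2 members lower with thalidomide and 2 higher at 72 h, against 7.51% and 7.27% of all genes.

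Fgf5 had the highest value at 72 h among members, with 5.81, 5.25 and 6.15 in thalidomide arrays, against 5.23, 5.74 and 4.98 in control arrays. The groups overlapped, and the change of 0.42 ± 0.19 (log2, SE) had an adjusted p of 0.531 (limma). Epiblast markers ran from 7.44 to 7.85 in thalidomide arrays and from 7.28 to 7.57 in control arrays at that time, and 0 of 4 passed. The lowest value was that of Etv5, at -0.32 ± 0.14 (log2, SE; adjusted p = 0.517, limma). The median over members was 0.00.

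**Figure D2:**
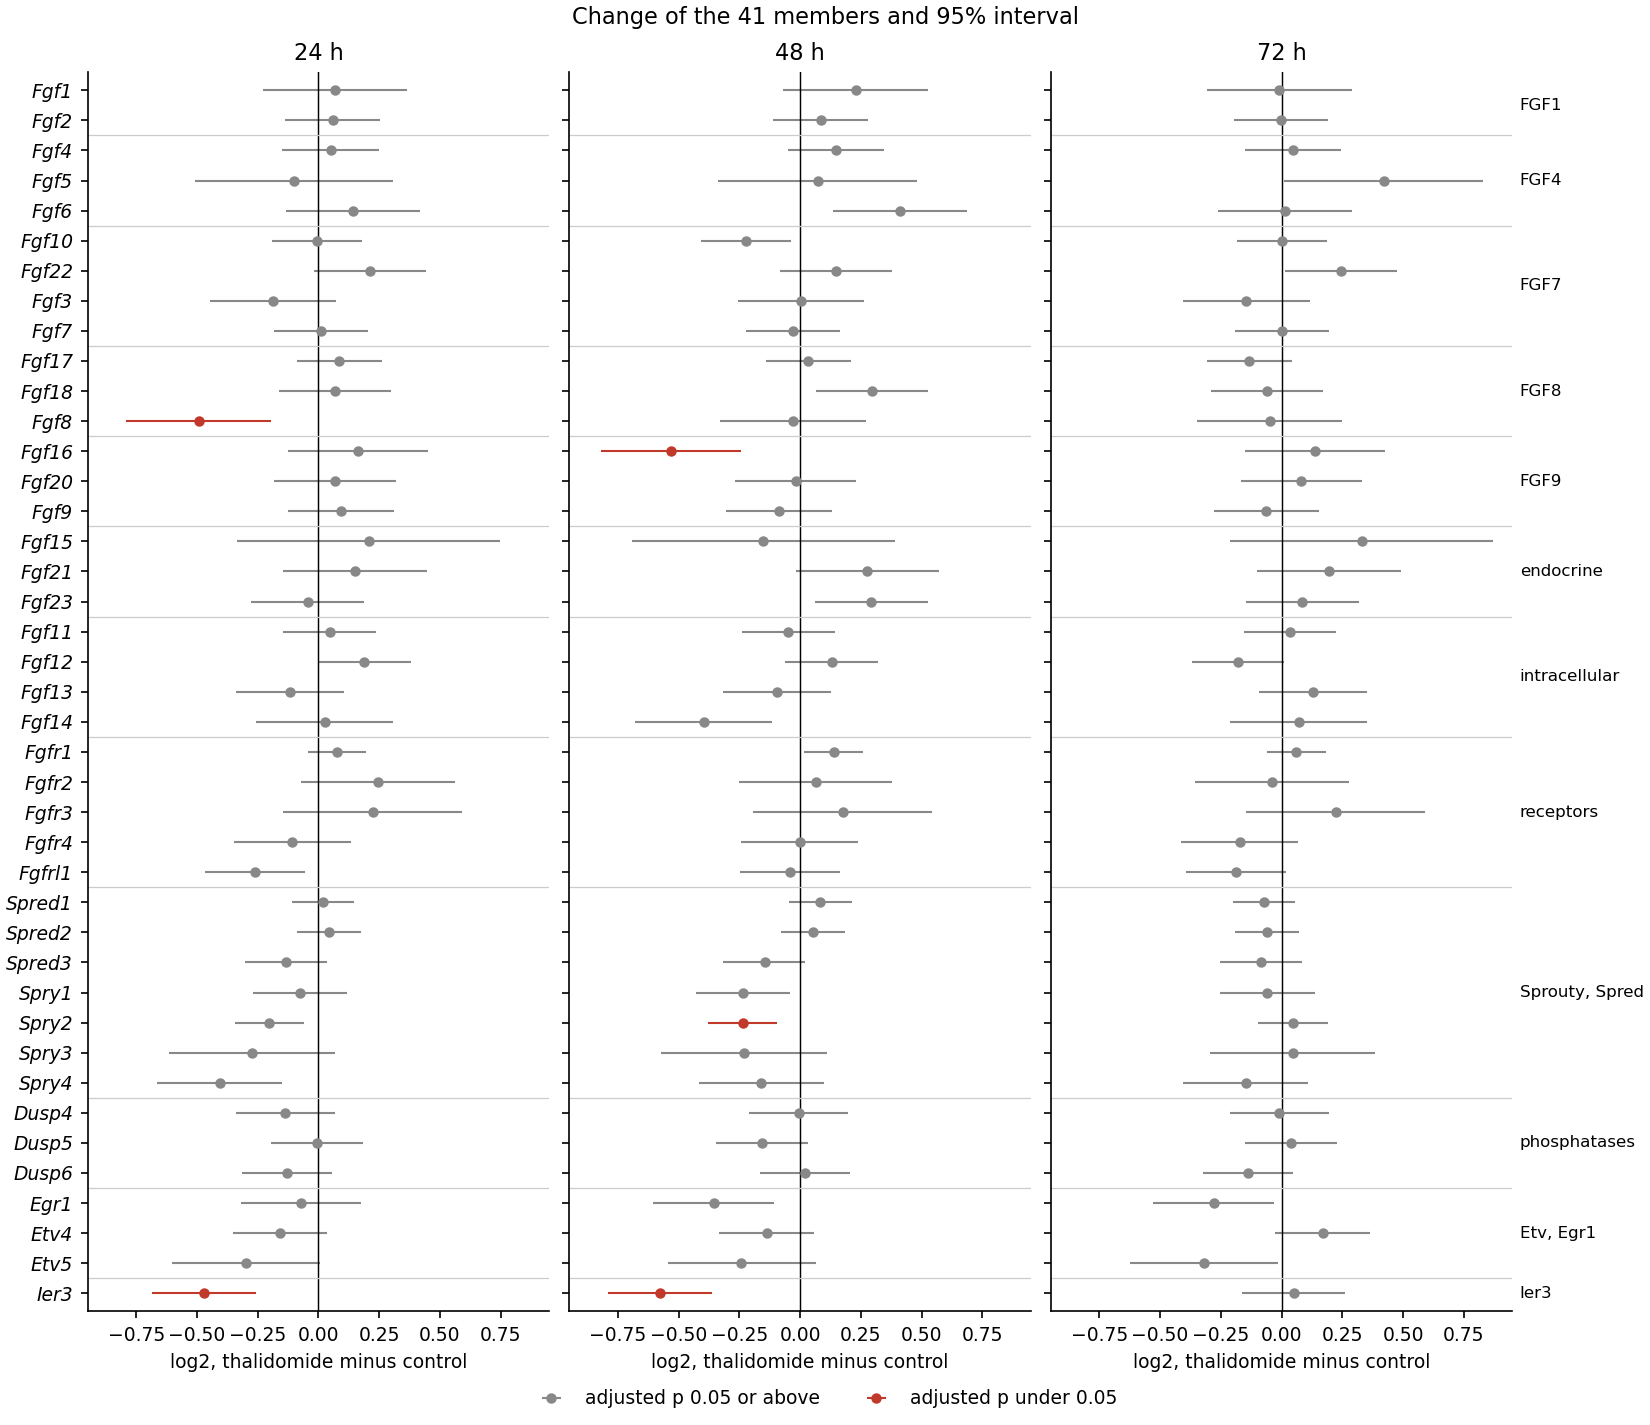
Log2 change, thalidomide minus control (horizontal axis), of the 41 members at 24, 48 and 72 h with the 95% interval from limma, grouped by role. Red marks an adjusted p under 0.05: Fgf8 and Ier3 at 24 h, Fgf16, Spry2 and Ier3 at 48 h, and 0 members at 72 h.

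Whether the effect of thalidomide differed between times was tested directly. For the difference between 48 h and 24 h, 0 members passed, and the background was 0%. For 72 h against 48 h it was 0 members and 0.0947% of all genes, and for 72 h against 24 h 0 members and 0.496%. At an unadjusted p under 0.05 the counts of members were 4, 8 and 5. The effect on Ier3 was 0.63 ± 0.14 higher at 72 h than at 48 h (log2, SE; adjusted p = 0.0749, limma) and 0.52 ± 0.14 higher at 72 h than at 24 h (adjusted p = 0.0983, limma). The first of these passed in 2 of 19 alternatives, and the second in 1 of 19. The effect on Fgf16 was -0.69 ± 0.19 at 48 h relative to 24 h (log2, SE; adjusted p = 0.372, limma) and 0.67 ± 0.19 at 72 h relative to 48 h (adjusted p = 0.132, limma). That Ier3 and Fgf16 were called at some times and not at others is therefore not shown by a test to be a change of effect.

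The course of differentiation moved the members far more than exposure did. Between 24 h and 72 h in control, 16 members fell and 5 rose, against 14.3% of all genes lower and 13.1% higher (27.5% either way). The members' shares were 39.0% lower and 12.2% higher. In thalidomide arrays 17 fell and 6 rose, against 10.6% and 14.4% of all genes (25.1% either way), or 41.5% and 14.6% of the members. Both courses had 14 falling and 5 rising members in common, and 0 members went opposite ways. Of 14 feedback genes 8 fell and 2 rose in thalidomide arrays, while 9 fell and 1 rose in control arrays. By interval in control, 7 members fell and 6 rose between 24 h and 48 h, against 6.7% of all genes lower and 6.93% higher (13.6% either way), and 5 fell and 1 rose between 48 h and 72 h, against 2.9% and 3.62% (6.53% either way).

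**Figure D3:**
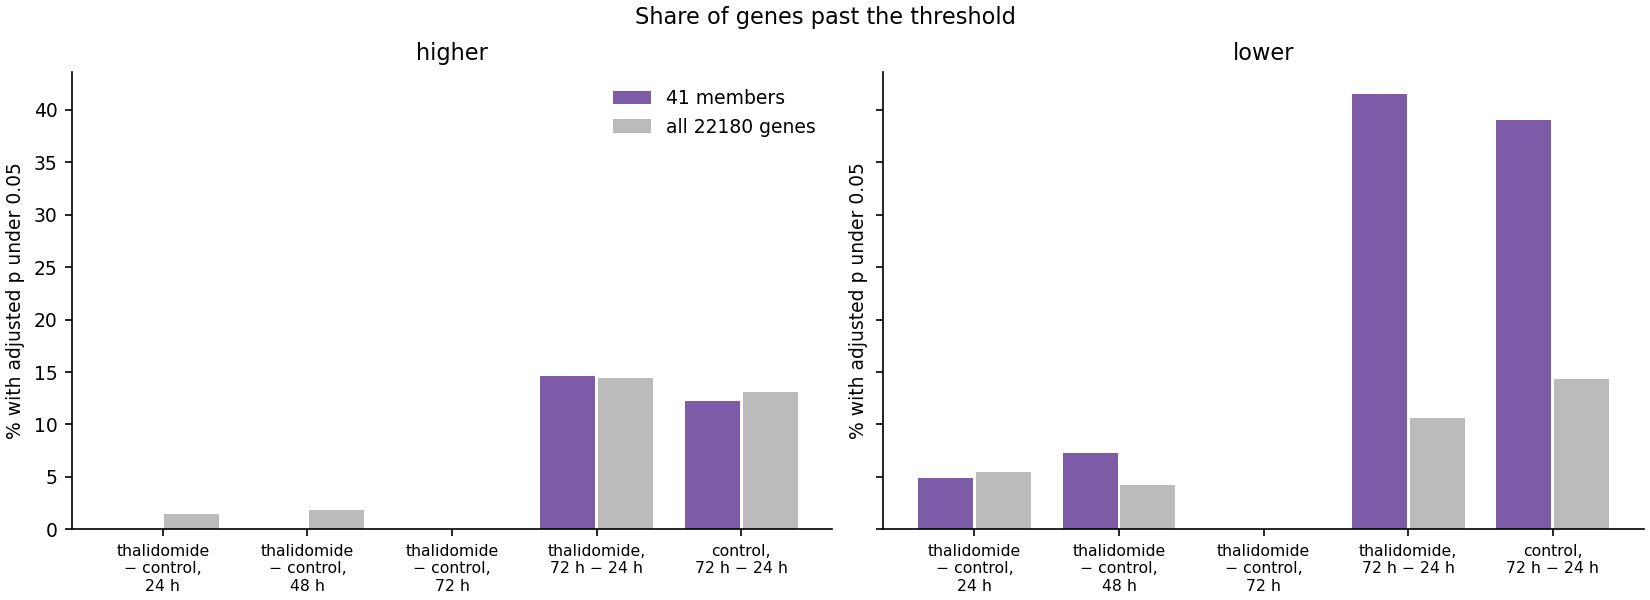
Share of genes with an adjusted p under 0.05 (vertical axis, percent), higher in the left panel and lower in the right, for the 41 members (purple) and all 22180 genes (grey). For exposure the members' shares stay below 8%, whereas for 72 h minus 24 h 41.5% of members were lower in thalidomide arrays and 39.0% in control arrays.

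Fgf5 changed most. Its log2 signals in thalidomide arrays were 9.01, 9.07 and 9.23 at 24 h, 7.51, 7.90 and 7.73 at 48 h and 5.81, 5.25 and 6.15 at 72 h. The control values were 9.23, 9.24 and 9.14 at 24 h, 7.59, 7.56 and 7.78 at 48 h and 5.23, 5.74 and 4.98 at 72 h. No array of a later time overlapped an earlier one in either course. The drop between 24 h and 72 h was 10.3-fold in thalidomide arrays (log2 change -3.37 ± 0.19, SE; adjusted p = 4.87e-09, limma) and 14.8-fold in control arrays (-3.89 ± 0.19; adjusted p = 6.59e-10). The courses differed by 0.52 ± 0.27 (log2, SE; 95% interval -0.06 to 1.10; adjusted p = 0.413, limma), which did not pass.

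Other ligands also fell. Fgf8 lost 1.15 ± 0.14 between 24 h and 72 h in thalidomide arrays and 1.59 ± 0.14 in control arrays (log2, SE; adjusted p = 1.47e-05 and 3.11e-07, limma). Most of its control course lay before 48 h, with values of 6.60, 6.77 and 6.87 at 48 h and 6.42, 6.62 and 6.35 at 72 h. Streak markers fell alongside it: all 4 were called lower between 24 h and 72 h in both courses. Their part in the course of Fgf8 was not tested.

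Fgf3, a ligand of early patterning in the ear and tail, had 6.07, 6.11 and 5.82 at 24 h, 5.55, 5.57 and 5.66 at 48 h and 5.24, 5.02 and 5.27 at 72 h in thalidomide arrays. The control arrays had 6.35, 5.98 and 6.23, then 5.50, 5.47 and 5.80, then 5.41, 5.09 and 5.46. The changes between 24 h and 72 h were -0.82 ± 0.12 in thalidomide arrays and -0.87 ± 0.12 in control arrays (log2, SE; adjusted p = 9.9e-05 and 4.64e-05, limma). The 2 courses were thus close in value. Fgf10, the ligand of limb and lung budding, had 6.60, 6.77 and 6.71 at 24 h, 6.36, 6.12 and 6.25 at 48 h and 5.96, 5.97 and 5.88 at 72 h in thalidomide arrays. In control arrays it had 6.77, 6.73 and 6.60, then 6.56, 6.41 and 6.43, then 6.11, 5.90 and 5.80. At 48 h every thalidomide array lay below every control array, at -0.22 ± 0.09 (log2, SE; adjusted p = 0.135, limma), and at 72 h the arrays overlapped. A second, dimmer probe set of Fgf10 moved less. It averaged 5.71 at 24 h and 5.59 at 72 h in thalidomide arrays, against 5.75 and 5.52 in control arrays. Its arrays overlapped at 48 h, with a change of -0.14.

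The ligands Fgf4 and Fgf17 fell in both courses as well. Fgf4 had -0.32 ± 0.09 in thalidomide arrays and -0.31 ± 0.09 in control arrays, and Fgf17 had -0.49 ± 0.08 and -0.27 ± 0.08 (log2, SE). Fgf16 was the ligand that rose, by 0.71 ± 0.14 in thalidomide arrays and by 0.74 ± 0.14 in control arrays. The remaining 11 secreted ligands were not called in the control course, and of these Fgf18 alone was called in the thalidomide course (-0.33 ± 0.11, log2, SE; adjusted p = 0.0351, limma). Among the 4 homologous factors 0 were called between 24 h and 72 h in control, and Fgf12 fell in thalidomide arrays (-0.42 ± 0.09, log2, SE; adjusted p = 0.00226, limma). Fgf12 was dim, with means of 4.66 at 24 h and 4.24 at 72 h in those arrays, near the lower quartile of all genes, 4.54. Fgf14 went up and down again in control, with 6.12, 6.00 and 6.21 at 24 h, 6.77, 6.91 and 7.22 at 48 h and 6.00, 6.08 and 5.87 at 72 h. The rise of 0.86 ± 0.13 and the drop of -0.99 ± 0.13 both passed (log2, SE; adjusted p = 0.000304 and 0.000188, limma). Its means in thalidomide arrays had the same shape, with 6.13 at 24 h, 6.57 at 48 h and 6.05 at 72 h, but those steps were not tested.

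Receptors rose over the same days. Of 5, Fgfr2, Fgfr3 and Fgfrl1 rose and Fgfr1 fell between 24 h and 72 h in each course, and Fgfr4 was called in neither. Fgfr2, the receptor through which Fgf10 acts, had 6.12, 6.00 and 6.44 at 24 h, 7.73, 7.45 and 7.55 at 48 h and 7.78, 7.83 and 7.88 at 72 h in thalidomide arrays. The control arrays had 5.61, 5.90 and 6.31, then 7.65, 7.57 and 7.32, then 7.98, 7.73 and 7.91. The rise was 3.13-fold in thalidomide arrays (1.65 ± 0.15; adjusted p = 6.1e-07) and 3.81-fold in control arrays (log2 1.93 ± 0.15, SE; adjusted p = 6.8e-08, limma). It was mostly complete at 48 h, where the control change from 24 h was 1.57 ± 0.15.

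Fgfrl1 had 6.50, 6.37 and 6.47 at 24 h, 7.38, 7.17 and 7.46 at 48 h and 7.76, 7.62 and 7.41 at 72 h in thalidomide arrays. In control arrays it had 6.67, 6.68 and 6.77, then 7.49, 7.26 and 7.39, then 7.71, 7.73 and 7.91. It rose by 1.15 ± 0.10 in thalidomide arrays and by 1.07 ± 0.10 in control arrays (log2, SE; adjusted p = 2.95e-07 and 3.7e-07, limma). Fgfr3, a receptor known from cartilage growth, had 5.36, 5.83 and 5.49 at 24 h, 6.20, 6.35 and 6.23 at 48 h and 6.12, 6.23 and 6.85 at 72 h in thalidomide arrays. The control arrays had 4.98, 5.46 and 5.57, then 5.95, 6.20 and 6.10, then 6.06, 6.24 and 6.23. It rose by 0.84 ± 0.17 in each course (log2, SE), and the 72 h arrays of the 2 treatments overlapped.

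**Figure D4:**
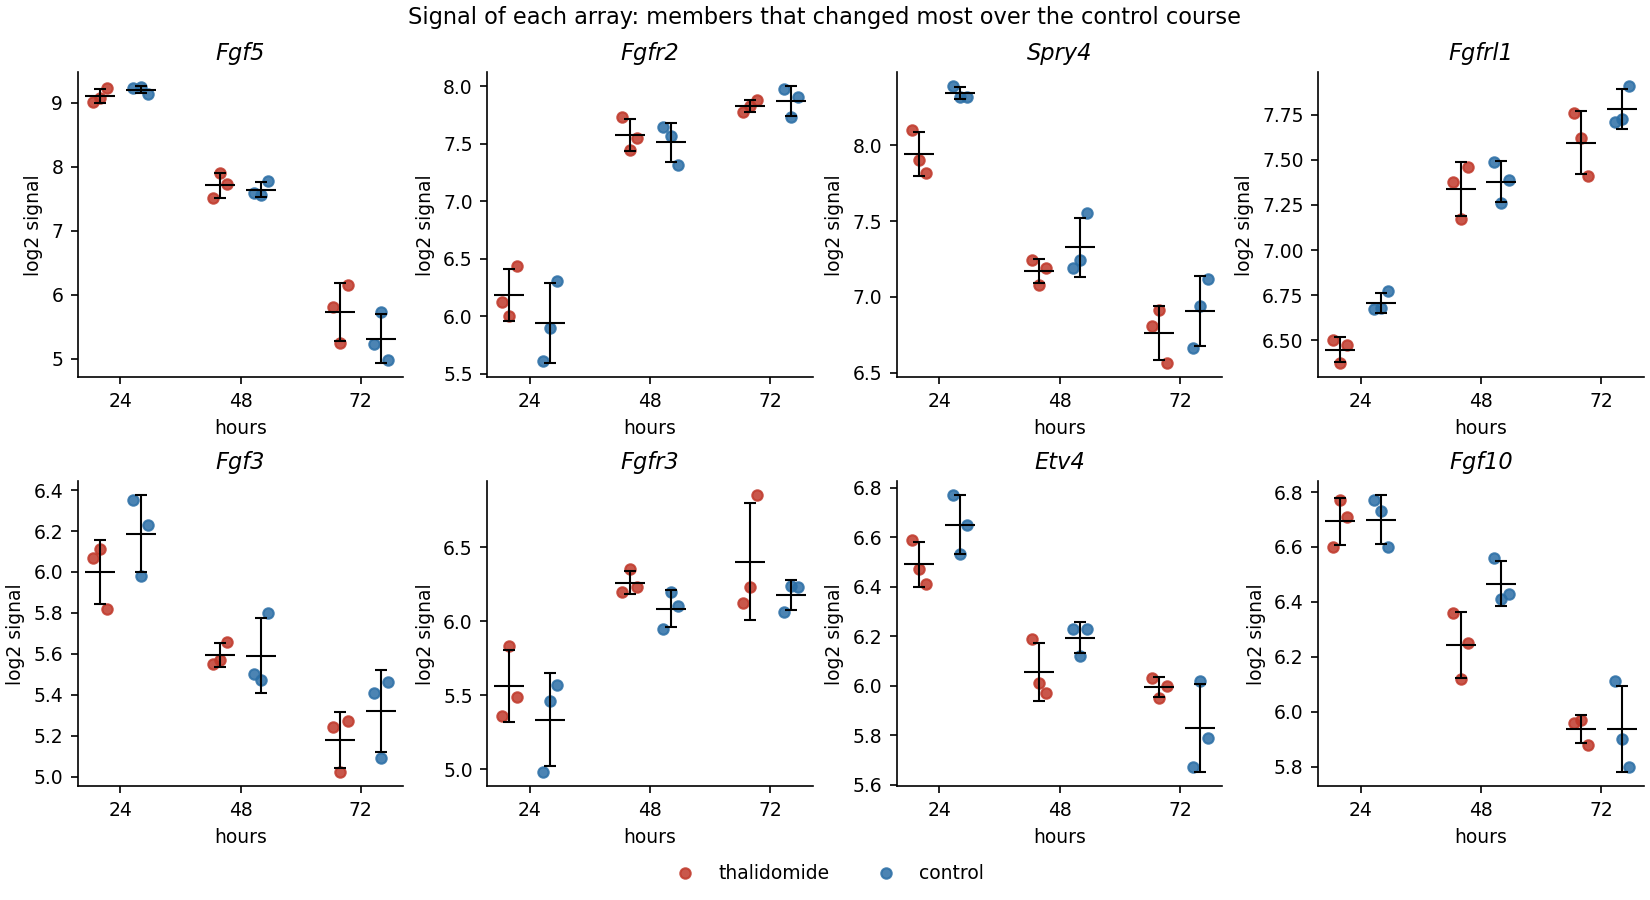
Log2 signal of each array (vertical axis) at 24, 48 and 72 h for the 8 members with the largest called control change between 24 h and 72 h other than Ier3, Fgf8, Fgf16 and Spry2, with thalidomide arrays in red left of control arrays in blue and the mean ± SD of 3 arrays in black. Fgf5, Spry4, Fgf3, Etv4 and Fgf10 go down and Fgfr2, Fgfrl1 and Fgfr3 go up in both treatments. Fgf10 is shown by the brighter of its 2 probe sets.

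The feedback genes mostly fell. Spry4 had 8.10, 7.90 and 7.82 at 24 h, 7.24, 7.08 and 7.19 at 48 h and 6.81, 6.91 and 6.56 at 72 h in thalidomide arrays. In control arrays it had 8.39, 8.32 and 8.32, then 7.19, 7.24 and 7.55, then 6.66, 6.94 and 7.12. The change between 24 h and 72 h was -1.18 ± 0.12 in thalidomide arrays and -1.44 ± 0.12 in control arrays (log2, SE; adjusted p = 2.28e-06 and 1.81e-07, limma). The groups thus stood apart at 24 h and overlapped at both later times. Etv4 had 6.59, 6.47 and 6.41 at 24 h, 6.19, 6.01 and 5.97 at 48 h and 6.03, 5.95 and 6.00 at 72 h in thalidomide arrays. The control arrays had 6.77, 6.53 and 6.65, then 6.23, 6.12 and 6.23, then 5.67, 6.02 and 5.79. Its change was -0.49 ± 0.09 in thalidomide arrays and -0.82 ± 0.09 in control arrays (log2, SE; adjusted p = 0.000731 and 3.66e-06, limma), and the courses differed by 0.33 ± 0.13 (log2, SE; adjusted p = 0.252, limma).

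Dusp4, Dusp6, Etv5, Spred1 and Spred2 fell in both courses, by sizes between 0.31 and 0.60 in thalidomide arrays and between 0.22 and 0.59 in control arrays on the log2 scale. For Dusp6 and Etv5 this holds for the brighter probe set. The dimmer one of Dusp6 averaged 4.24 at 24 h and 4.43 at 72 h in thalidomide arrays, against 4.64 and 4.45 in control arrays. That of Etv5 changed little, from 5.55 to 5.46 in thalidomide arrays and from 5.57 to 5.44 in control arrays. Dusp5 and Spry2 fell in the control course alone and Egr1 in the thalidomide course alone, with the differences between courses not passing for any of them. Spry1 went the other way, with a rise of 0.71 ± 0.09 in thalidomide arrays and 0.69 ± 0.09 in control arrays (log2, SE; adjusted p = 2.52e-05 and 2.46e-05, limma). Ier3 was called higher in thalidomide arrays alone, by 0.41 ± 0.10 (log2, SE; adjusted p = 0.00677, limma), while its control change was -0.12 ± 0.10. The difference between its courses, 0.52, did not pass, and its thalidomide course crosses the re-analysis tag. Spry3 and Spred3 were called in neither course.

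The rest of the pathway was read from 3 lists of genes that are not members, chosen for their place in it. Of 24 measured genes for co-receptors, heparan sulfate and FGF carriers, 1 fell and 0 rose at 24 h, 2 fell and 0 rose at 48 h and 0 passed at 72 h. The shares called lower were 4.17% at 24 h and 8.33% at 48 h, against 5.43% and 4.23% of all genes. Gpc4, a heparan sulfate proteoglycan of the cell surface, averaged 7.46 ± 0.16 in thalidomide arrays and 7.86 ± 0.09 in control arrays at 24 h (SD, n = 3 each), a change of -0.40 ± 0.10 (log2, SE; adjusted p = 0.0202, limma). At 48 h Gpc4 had -0.48 ± 0.10 (adjusted p = 0.00997, limma) and Sdc2, another such proteoglycan, had -0.37 ± 0.09 (adjusted p = 0.0296, limma). The smallest p at 72 h was that of Gpc3, at -0.22 ± 0.07 (adjusted p = 0.287, limma).

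Of 18 measured adaptor, RAS, RAF, MEK and ERK cascade genes, 1 fell and 0 rose at 24 h, and 0 passed at 48 h or 72 h. The share of 5.56% at 24 h was close to the 5.43% of all genes called lower. The 1 was Map2k1, which encodes the kinase MEK1 that activates ERK, at -0.30 ± 0.09 (log2, SE; adjusted p = 0.0481, limma). The smallest p-values at the later times were those of Nf1, a RAS inhibitor, at 48 h (0.18 ± 0.06; adjusted p = 0.0929, limma) and of the adaptor Shc1 at 72 h (-0.16 ± 0.07; adjusted p = 0.538, limma). Of 19 other ERK targets, 2 fell and 1 rose at 24 h, 1 fell and 1 rose at 48 h and 0 passed at 72 h. Their shares at 24 h were 10.5% lower and 5.26% higher, against 5.43% and 1.42% of all genes, and at 48 h 5.26% either way, against 4.23% lower and 1.85% higher. At 24 h the ETS factor Etv1 had -0.50 ± 0.08 (adjusted p = 0.00271, limma), the growth regulator Myc -0.46 ± 0.10 (adjusted p = 0.0105, limma) and the AP-1 subunit Jun 0.36 ± 0.08 (adjusted p = 0.0157, limma). At 48 h the phosphatase Dusp14 had 0.43 ± 0.09 (adjusted p = 0.0107, limma), and Srf, which binds CArG boxes of early genes, had -0.23 ± 0.07 (adjusted p = 0.0459, limma). At 72 h the smallest p was that of the cyclin gene Ccnd1, at 0.33 ± 0.13 (adjusted p = 0.436, limma).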

How the data were processed

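Biotin-labelled total RNA was hybridised to Affymetrix arrays, 1 sample per array. The deposited values are log2 signals. RMA and Affymetrix Expression Console 1.3 are named in the submitters' processing notes. Once sorted, 2 arrays never differed by more than 0.19 at any rank, which is what quantile normalization gives, so a change shared by most transcripts cannot be measured. Detection calls were not used here. A gene was represented by its brightest probe set with a single symbol, which left 22180 genes from 41345 probe sets. Several probe sets were present for 4 of 41 members: Dusp6, Etv5, Fgf10 and Fgf15. At 48 h the Fgf15 probe set used had -0.15 with overlapping arrays. Its dimmer one had 0.24, with every thalidomide array above every control array. For Etv5 at 48 h the probe set used had -0.24 with overlap, and the dimmer one -0.26 without overlap. limma 3.58.1 in R 4.3.3 fitted 6 group means over 18 arrays (12 residual degrees of freedom), with Benjamini-Hochberg adjustment over all genes and a threshold of 0.05. The fit was tested on simulated data. The number of arrays limits precision, and p-values set a difference of group means against the spread between arrays of a group.

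The members, lists and tests were chosen with earlier results of these data known. Named members were those called in an exposure comparison or difference of effect, the 8 others with the largest called control change between 24 h and 72 h, and the 4 others with the smallest exposure p. The others are given by role, as counts, ranges or called courses. Alternatives were a replicate block, cyclic loess, a filter at the median signal, mean probe sets, array weights, eBayes with trend and robust options, only the groups compared, and leaving out each array.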

Additional observations from a re-analysis of the deposited data

How the results depend on the processing

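The 4 members called for exposure kept their sign in every alternative of those comparisons, while 5 members at 24 h, 6 at 48 h and 6 at 72 h, all uncalled, changed sign under cyclic loess. At 24 h the count of 2 called members was 1 with a replicate block, 1 after cyclic loess, 4 with a filter at the median signal (28 members tested), 0 with only the groups compared and 0 to 2 when each array was left out. At 48 h the block left 2 of 3, losing Spry2, and it changed no call at 72 h or in the differences of effect. Replicate numbers are shared between groups. Within a time, deviations from the group mean correlated between same-numbered exposed and control arrays at -0.14 to 0.12, so no clear pairing showed there. Same-numbered arrays of different times were not compared. At 48 h the count of 3, all lower, was 2 lower and 1 higher after cyclic loess, 0 with only the groups compared and 1 to 3 with an array left out. For the difference between 72 h and 48 h the count of 0 was 1 with that filter and 1 with trend and robust options, and for 72 h against 24 h it was 1 with that filter, in each case Ier3. For control between 48 h and 72 h the count of 6 was 3 to 5 with an array left out, and 3 without array 3 of 48 h. Over all genes, 1521 calls at 24 h became 121 with only the groups compared and 581 to 1295 with an array left out, and 1349 at 48 h became 163 and 494 to 1280. The 2 at 72 h became 38 with the filter, 30 with trend and robust options, 4 with the block and 0 to 81 with an array left out. The causes were not tested beyond the smaller number of arrays or genes in these settings. No level was set against background, so signal limits dim members such as Fgf16.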
